A study of Arabidopsis thaliana with 8 samples.

Results

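AT5G25450 is a nuclear gene of Arabidopsis thaliana that encodes QCR7-2, a small subunit of the mitochondrial cytochrome bc1 complex. It was followed as 1 gene out of 13333 with a probe set of its own, through 1 probe set (246944_at) out of 22810. The probe set was found by its annotation, and the gene itself was chosen by its rise at 38°C on these same arrays, in both RNA populations. Therefore, its heat effects are given as a description, without a test. Seedlings of ecotype Columbia-0, 7 days old and grown on plates under long days, were either kept at 22°C or incubated at 38°C for 45 min. Total mRNA and polysome-bound mRNA were isolated from the same seedling samples, which gave 4 groups of 2 biological replicates: total at 22°C (TOT22), total at 38°C (TOT38), polysome-bound at 22°C (PB22) and polysome-bound at 38°C (PB38). The 8 RNA samples were hybridized to ATH-1 arrays, on which a set of short probes reports each transcript. No group carries a transgene or a mutation, and whole seedlings were used, so that more mRNA per cell and more cells with the mRNA cannot be told apart.

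The cytochrome bc1 complex, or complex III of the respiratory chain, takes electrons from ubiquinol and passes them to cytochrome c while protons are moved across the inner mitochondrial membrane. Its catalytic subunits are cytochrome b, made in the mitochondrion, cytochrome c1 and the Rieske iron-sulfur protein. Small subunits without a redox centre, QCR7 among them, surround this core. In plants the large core subunits are also the mitochondrial processing peptidase, which removes the targeting sequences of imported proteins. Many subunits, QCR7 included, have a pair of nuclear genes in Arabidopsis. The other QCR7 gene is AT4G32470 (QCR7-1). Polysomes are mRNAs that carry several ribosomes, and the ratio of polysome-bound to total mRNA is used as a measure of translation.

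The values are log2 signals made by robust multi-array averaging (RMA), and the PB38 columns also carry the reduction in polysome content measured by the authors, a single factor per replicate. Averaged over all probe sets, the PB38 arrays had log2 signals of 5.30 and 5.25, and the remaining 6 arrays had 6.15 to 6.18. Changes in polysome-bound mRNA are given with this factor, as in the study's design. To compare polysome-bound with total mRNA, each array was centred on its own mean, so that 0 stands for the average probe set. To check the labelled tissue, RCA, which encodes the activase of Rubisco in green tissue, had log2 signals of 13.84 to 14.25 in the 4 total samples. EXPA7, a root hair expansin, had 5.46 to 7.11 there, where the array medians were 5.94 to 6.19, so that it does not by itself show root tissue. Only 1 of 10 listed shoot markers and 1 of 7 root markers had a probe set of 1 gene, so the check is a narrow one.

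The mRNA of AT5G25450 was of middling signal at 22°C and among the brightest of the array at 38°C. In TOT22 the log2 signals were 5.96 and 5.99, and in TOT38 they were 13.58 and 13.42. In PB22 the signals were 7.23 and 6.58, and in PB38 they were 12.93 and 12.73. The 4 arrays of heat-stressed seedlings all lay more than 5 log2 units above the 4 control arrays, and no group at 38°C overlapped one at 22°C. Within groups, the arrays differed by 0.03 in TOT22, 0.16 in TOT38 and 0.20 in PB38, whereas the PB22 arrays differed by 0.65. Thus the control polysome-bound group had the widest spread of the 4. The group means were 5.98 ± 0.021 in TOT22, 13.5 ± 0.11 in TOT38, 6.91 ± 0.46 in PB22 and 12.8 ± 0.14 in PB38 (log2, SD, n = 2).

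**Figure D1:**
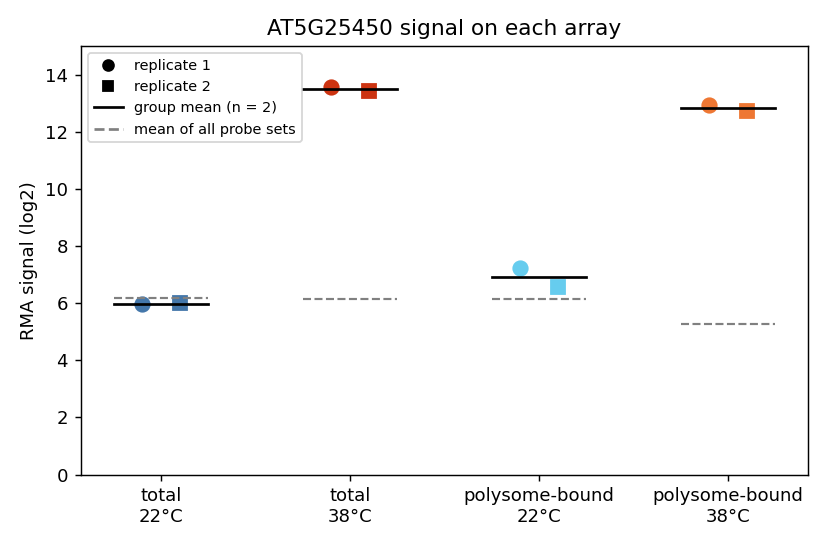
Log2 RMA signal of AT5G25450 on each of the 8 arrays, by group, with the group mean (black line) and the mean of all probe sets on those arrays (dashed line). The control samples sit between 5.96 and 7.23 and the heat-stressed samples between 12.73 and 13.58, and the 2 PB22 arrays stand furthest apart.

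Set against the other probe sets of the same array, the change was from the middle to the top. In TOT22, 47.3% and 47.4% of probe sets had a lower signal than AT5G25450, and in PB22 65.9% and 56.7% did. In TOT38 only 33 and 50 probe sets were brighter, and in PB38 22 and 31. The brightest probe sets of the TOT38 arrays had 14.12 and 14.19, so the gene was within 1 log2 unit of the top of the scale. Signals of different probe sets depend on their probes as well as on the mRNA, so that these places describe the arrays and do not rank mRNA amounts.

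In total mRNA the log2 signal was higher by 7.53 at 38°C (SE, standard error, 0.22, n = 2 arrays per group), a 184-fold difference. Only 21 of the 22810 probe sets increased more, and among the 13484 probe sets of 1 gene it was the 9th from the top. In polysome-bound mRNA the rise was 5.93 (SE 0.22), or 60.8-fold, and 34 probe sets increased more. With arrays centred on their means, which takes out the polysome-content factor, the rise in polysome-bound mRNA was 6.80, or 112-fold. Over all probe sets, the median log2 change was 0.03 in total mRNA and -0.85 in polysome-bound mRNA, the latter with the factor. These ranks follow from the selection of the gene. With 1 array left out, the rise lay between 7.45 and 7.61 in total mRNA and between 5.60 and 6.25 in polysome-bound mRNA. The lowest value for polysome-bound mRNA came without PB22 replicate 2, and the highest without PB22 replicate 1.

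To find out whether the other QCR7 gene changed as well, the same arrays were read for AT4G32470. Its log2 signals were 11.83 and 11.77 in TOT22 and 11.90 and 11.83 in TOT38. In PB22 they were 12.21 and 12.23, and in PB38 11.26 and 11.06. Its total mRNA was thus nearly level between temperatures, with TOT22 and TOT38 meeting at 11.83. The log2 change was 0.065 in total mRNA (SE 0.13, n = 2 arrays per group, limma adjusted p = 0.734). In polysome-bound mRNA it was -1.06 (SE 0.13, adjusted p = 0.000508 from limma). This fall passes the threshold with the polysome-content factor in the values, and with arrays centred on their means it was -0.18 (adjusted p = 0.328 from limma). Without PB38 replicate 2 it was -0.96 and short of 2-fold. The heat effects of the 2 genes differed by 7.46 log2 units in total mRNA and by 6.99 in polysome-bound mRNA, differences that are a description since 1 of them was chosen for its rise.

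The rest of complex III stayed near its level at 22°C in total mRNA. Of 15 other complex III genes listed, 10 had a probe set of 1 gene. In total mRNA 0 of the 10 rose and 0 fell by limma with a change of 2-fold or more and an adjusted p under 0.05, where 4.63% of all probe sets rose and 7.03% fell. At an unadjusted p under 0.05, 1 of them differed, MPPBETA. A test against a minimum change of 1.5-fold (treat) and a fit on only the 4 total arrays also called 0. Their log2 changes in total mRNA ran from -0.39 to 0.24, with a median of -0.13, against 0.03 for all probe sets. In polysome-bound mRNA 0 rose and 5 fell, where 2.06% of all probe sets rose and 36.9% fell. With arrays centred on their means 0 of the 10 rose and 0 fell, where 4.77% and 6.35% of all probe sets did. The median log2 change in polysome-bound mRNA was -0.98, against -0.85 for all probe sets.

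Among the core subunits with processing peptidase activity, MPPalpha-1 (AT1G51980) had a log2 change of 0.15 in total mRNA and -0.83 in polysome-bound mRNA. MPPBETA (AT3G02090) had -0.38 and -0.95. Neither passed the 2-fold limit. Cytochrome c1, the subunit that hands electrons to cytochrome c, has a pair of genes here. CYC1-1 (AT3G27240) had -0.05 and -0.89, and CYC1-2 (AT5G40810) had -0.06 and -1.40. The fall of CYC1-2 in polysome-bound mRNA passed the threshold (SE 0.13, n = 2 arrays per group, limma adjusted p = 0.000244). With arrays centred on their means the change of CYC1-2 was -0.52 and below 2-fold.

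Among the small subunits, QCR8-1 (AT3G10860) had -0.20 in total mRNA and -0.81 in polysome-bound mRNA. The acidic hinge subunit QCR6 is encoded by a pair of genes. QCR6-1 (AT1G15120) had -0.21 and -1.01, and QCR6-2 (AT2G01090) had 0.24 and -0.39. QCR9 (AT3G52730) had -0.37 and -1.14, and QCR10 (AT2G40765) -0.39 and -1.09. Of these, QCR6-1, QCR9 and QCR10 fell in polysome-bound mRNA (adjusted p = 0.0064, 0.00102 and 0.00181 from limma). Without PB22 replicate 1 only 2 of the 10 complex III genes were called there, and without PB38 replicate 2 only 3 were. The genes of cytochrome b, the Rieske protein, MPPalpha-2 and QCR8-2 were not analysed here.

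**Figure D2:**
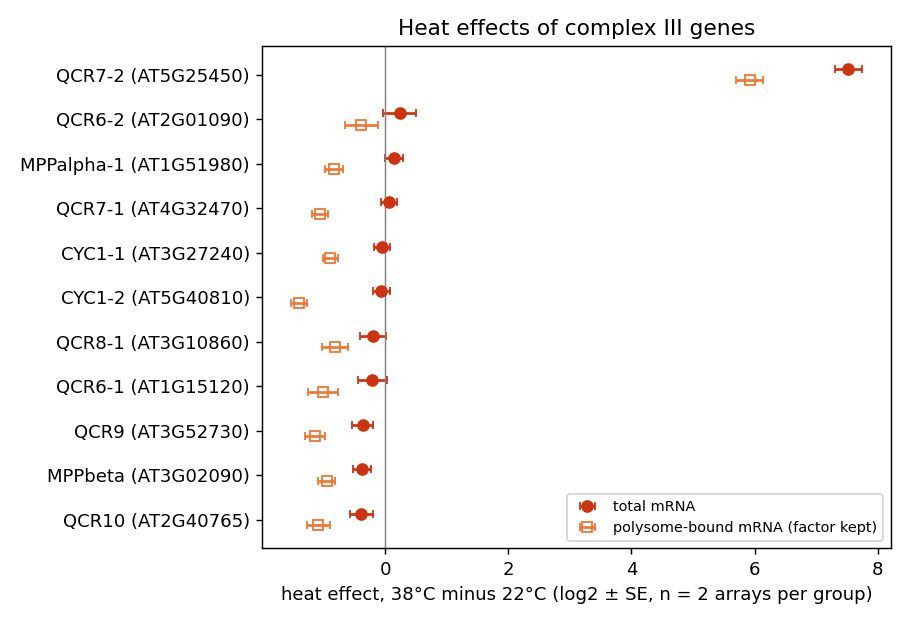
Log2 heat effect (38°C minus 22°C, ± standard error, n = 2 arrays per group) of the 11 complex III genes measured, in total mRNA (filled circles) and polysome-bound mRNA with the polysome-content factor (open squares). AT5G25450 lies at 7.53 and 5.93, and the other 10 genes lie between -0.39 and 0.24 in total mRNA and between -1.40 and -0.39 in polysome-bound mRNA.

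Complex III has 3 pairs of genes for 1 subunit with both members measured. They and the cytochrome c pair were set side by side after their values had been seen, and pairs of other complexes were not compared. The total mRNAs of the CYC1 pair had heat effects that differed by 0.01 on the log2 scale, and those of the QCR6 pair by 0.44. The cytochrome c genes, whose product carries electrons from complex III to complex IV, differed by 1.84. CYTC-2 (AT4G10040) had log2 signals of 8.56 and 9.39 in TOT22 and of 11.06 and 10.59 in TOT38. These groups did not overlap, and its total mRNA rose by 1.85 (SE 0.30, n = 2 arrays per group, limma adjusted p = 0.0065). In polysome-bound mRNA CYTC-2 had a log2 change of 0.70 (adjusted p = 0.0654 from limma), and of 1.58 with arrays centred on their means (adjusted p = 0.0112). CYTC-1 (AT1G22840) had 0.015 in total mRNA. Hence, in the QCR7 and the cytochrome c pair 1 member had a higher total mRNA at 38°C and the other was near 0.

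Among the measured genes of the respiratory chain, AT5G25450 stood alone in the size of its change. Probe sets of 1 gene covered 18 of 41 listed genes of complex I and 4 of 13 of complex II. They covered 11 of 17 of complex IV with cytochrome c and 8 of 22 of complex V. The remaining listed genes were not read. Of 51 other genes of complexes I to V and cytochrome c, those of complex III included, 49 had log2 changes in total mRNA within 1 unit of 0, and the median was -0.05. By limma 2 of the 51 rose in total mRNA and 0 fell, where 4.63% and 7.03% of all probe sets did. In polysome-bound mRNA 0 rose and 20 fell, a share near the 36.9% of all probe sets that fell. With arrays centred on their means 2 rose and 0 fell in polysome-bound mRNA, the 2 being those that rose in total mRNA. Complex I, the NADH dehydrogenase, had 18 measured genes, of which none changed in total mRNA by limma, either at the adjusted threshold or at an unadjusted p under 0.05 (a count of 0 for both). In polysome-bound mRNA 7 of the 18 fell, again near the 36.9% over all probe sets. The largest of these falls were those of AT2G31490 (-1.34) and OEP16-3 (-1.24). AT1G14450, with a change of -1 (adjusted p = 0.0152 from limma), stood on the 2-fold limit itself. It was counted neither among the 7 nor among the 20. Complex II, succinate dehydrogenase, had 4 measured genes and 0 calls in either population, with 2 at an unadjusted p under 0.05 in total mRNA.

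In complex IV with cytochrome c, 1 of 11 genes rose in total mRNA, CYTC-2, where 4.63% of all probe sets did. In polysome-bound mRNA 4 of the 11 fell, near the 36.9% over all probe sets, AT3G15640 (-1.46) and AT5G61310 (-1.30) the most. The call of AT5G61310 was lost without PB22 replicate 1 (-0.89) and without PB38 replicate 2 (-0.95). In complex V, the ATP synthase, 1 of 8 genes rose in total mRNA and 4 fell in polysome-bound mRNA, where 4.63% of all probe sets rose and 36.9% fell. The gene that rose was AT5G04750, which encodes an inhibitor of the F1 part, by 1.02 (SE 0.27, n = 2 arrays per group, limma adjusted p = 0.0364). That call was lost whenever 1 of the 4 arrays was left out (adjusted p 0.052 to 0.164). The largest falls in complex V were those of AT4G29480 (-1.49) and AT2G19680 (-1.40). Of 5 alternative respiratory genes, whose enzymes bypass proton-pumping steps, 1 rose in total mRNA, where 4.63% of all probe sets did. It was NDB2, which rose by 1.12 (adjusted p = 0.0437 from limma). The NDB2 call was lost against a minimum change of 1.5-fold (adjusted p = 0.496 from treat). It was also lost in a fit on only the 4 total arrays (adjusted p = 0.0646 from limma). The same held without TOT22 replicate 1 (0.725) and without TOT38 replicate 1 (1.09) or 2 (1.16).

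Heat effects of the size of AT5G25450 were found among chaperone genes. Of 15 genes on the mitochondrial chaperone list only 2 were measured, and both encode small heat shock proteins. Both rose in total and in polysome-bound mRNA, where 4.63% and 2.06% of all probe sets did. AT5G51440 (HSP23.5) rose by 8.14 in total mRNA and by 7.05 in polysome-bound mRNA, and AT1G52560 by 9.34 and 8.50. Of 18 genes on the heat shock list 5 were measured. These 5 rose by 3.79 to 7.90 in total mRNA and by 2.82 to 6.90 in polysome-bound mRNA. Hop3, an HSP70-HSP90 co-chaperone, and AT5G48570, a peptidyl-prolyl isomerase, had the largest of these rises. The lists were drawn up with earlier results of these data known and are no independent evidence of a direction. No gene of the list of mitochondrial protein import or of seed storage proteins had a named probe set here.

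**Figure D3:**
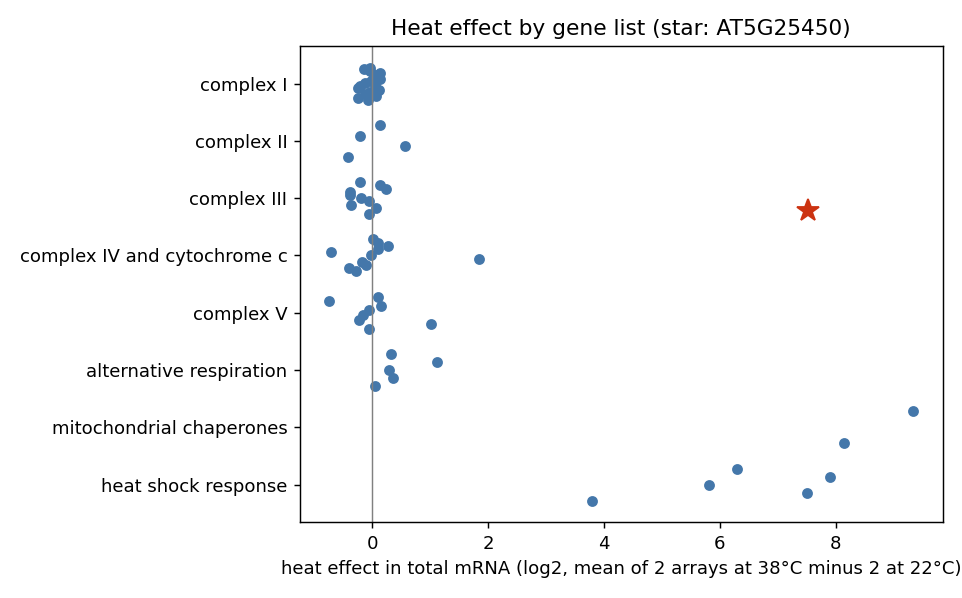
Log2 heat effect in total mRNA of each measured gene (points, means of 2 arrays at 38°C minus 2 at 22°C) by gene list, with AT5G25450 as a star. AT5G25450 lies at 7.53, between 3.79 and 9.34 where the heat shock and mitochondrial chaperone genes lie, and the other complex III genes lie within 0.39 of 0.

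To describe which mRNAs behaved most like AT5G25450, the profile of each probe set of 1 gene over the 8 arrays was centred on its own mean and compared by the root mean square distance. Of 13483 probe sets, the nearest was that of AT2G29500, a cytosolic small heat shock protein, at 0.13 on the log2 scale. The arrays of AT5G25450 scattered by 0.17 about their own group means. The log2 signals of AT2G29500 were 6.19 and 6.01 in TOT22, 13.69 and 13.37 in TOT38, 7.20 and 6.46 in PB22, and 13.07 and 12.99 in PB38. Thus both genes had the higher PB22 signal in replicate 1. AT5G37670, another small heat shock protein, followed at 0.24, and then AT2G20560, a J-domain co-chaperone of HSP70, at 0.30.

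The others among the 10 nearest were AT5G10695 (0.30), AT1G72660, a GTPase of the DRG type (0.37), AT5G07330 (0.39), AT5G48570 (0.39), AT1G44414 (0.42), AT4G23493 (0.45) and AT1G21550, a calmodulin-like gene (0.47). Their heat effects ran from 6.38 to 7.86 in total mRNA and from 5.45 to 7.12 in polysome-bound mRNA. No other gene of the respiratory lists was among them. The likeness is over 8 arrays of 4 conditions and is dominated by the heat effect. With Pearson's correlation in place of the distance, which ignores the size of the effect, 3 of these 10 genes were again among the nearest 10.

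**Figure D4:**
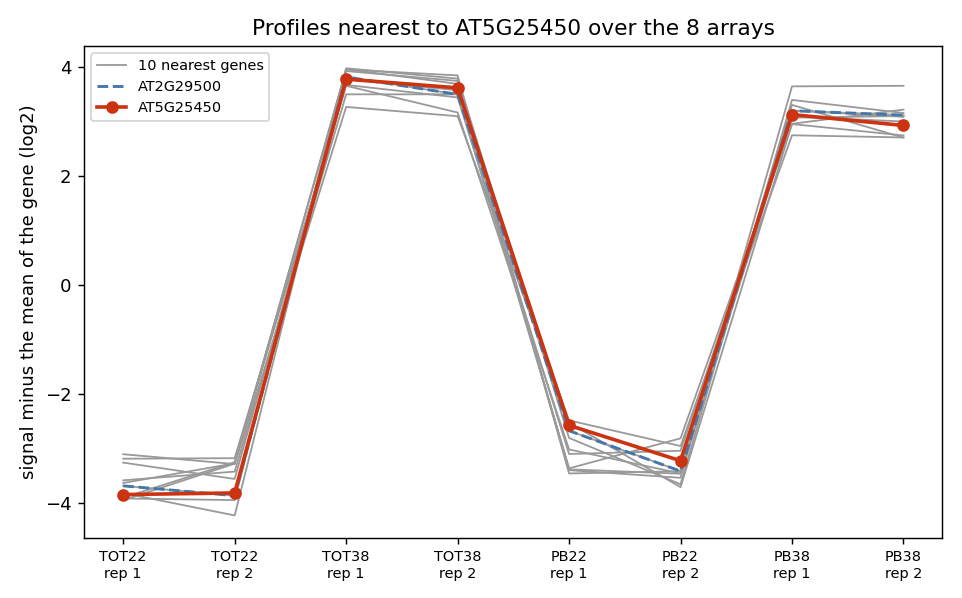
Log2 signal minus the gene's mean on the 8 arrays for AT5G25450 (red), AT2G29500 (dashed) and the others of the 10 nearest genes (grey), with lines only joining the arrays of 1 gene. AT5G25450 and AT2G29500 run within a root mean square distance of 0.13, and both stand higher in PB22 replicate 1 than in PB22 replicate 2.

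None of the measured neighbours of AT5G25450 in the gene order had a heat effect of its size. Among the nearest loci with a probe set of 1 gene, 5 on each side, the adjacent AT5G25440 rose in total mRNA by 1.31 (SE 0.14, n = 2 arrays per group, limma adjusted p = 0.00142), with a log2 change of -0.27 in polysome-bound mRNA (adjusted p = 0.124). AT5G25510, 11 loci away, fell by 1.33 in total mRNA and by 1.91 in polysome-bound mRNA (adjusted p = 0.00278 and 0.000217). AT5G25475 and AT5G25500 also fell in polysome-bound mRNA (-1.07 and -1.41), neither of them with arrays centred on their means. Of all probe sets, 36.9% fell in polysome-bound mRNA, and in total mRNA 4.63% rose and 7.03% fell. The remaining 6 neighbours were short of 2-fold in both populations, with log2 changes in total mRNA from 0.04 to 0.61. The highest of these was that of AT5G25490 (adjusted p = 0.0283 from limma). The others short of 2-fold, AT5G25400, AT5G25410, AT5G25415, AT5G25430 and AT5G25470, had low mean TOT22 signals, from 3.03 to 3.90. The TOT22 array medians were 6.16 and 6.19, so a change in these mRNAs could go unseen.

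The next question was whether AT5G25450 mRNA was bound to polysomes more or less than the average mRNA, a comparison that the selection did not use as such, although it shares arrays with the heat effects. At 22°C, the polysome-bound signal lay above the total signal by 0.94 on the log2 scale relative to the array average (SE 0.22, n = 2 arrays per group), a 1.92-fold difference with a 95% interval from 0.43 to 1.45. Both PB22 arrays were above both TOT22 arrays, and only 15 of the 22810 probe sets had a higher value. By limma the adjusted p was 0.282. That fit called 0 probe sets above and 0 below the average, with 900 and 1059 at an unadjusted p under 0.05. The 2 RNA populations of a seedling sample form a pair, and with the seedling sample as block the adjusted p was 0.00689 from limma (SE 0.15). That fit called 4.2% of all probe sets above and 4.6% below the average. The call was thus made only with the block, in a fit whose SE pools both temperatures and draws on the other probe sets. Within the seedling samples at 22°C the values were 1.27 and 0.61, so pairing did not narrow the spread of this gene.

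PB22 replicate 1 carried much of this difference. Within the seedling sample of replicate 1 the polysome-bound signal exceeded the total signal by 1.27, and within that of replicate 2 by 0.61. Without PB22 replicate 1 the value was 0.62, and without PB22 replicate 2 it was 1.27. In replicate 1 only 5 probe sets had a higher value than AT5G25450, and in replicate 2 442 did. The PB22 arrays differed by 0.65 for AT5G25450 after centring, where the SD of that difference over all probe sets was 0.40 and 779 probe sets had a larger one. Of the 10 nearest genes, picked by their likeness on arrays that include PB22, 7 had the higher PB22 signal in replicate 1. Among 53 other probe sets of 1 gene that rose at least 16-fold in total mRNA, a limit chosen after the values were seen, 28 did, with a median difference of 0.029. What sets the PB22 arrays apart for these genes was not tested.

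At 38°C the polysome-bound signal of AT5G25450 lay 0.20 above the total signal relative to the array average (SE 0.22, 95% interval -0.31 to 0.72, adjusted p = 0.75 from limma). The values were 0.20 and 0.21 within the seedling samples of replicates 1 and 2. With the seedling sample as block the adjusted p was 0.382, in a fit that called 11.8% of all probe sets above and 10.4% below the average, against 0.241% and 0.921% without the block. A total of 5550 probe sets had a higher value. Thus the gene stood near the edge of the distribution at 22°C and within its bulk at 38°C. With the polysome-content factor kept, the difference at 38°C was -0.67 (adjusted p = 0.0247 from limma), the reverse direction, since the factor lowers every PB38 value alike.

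**Figure D5:**
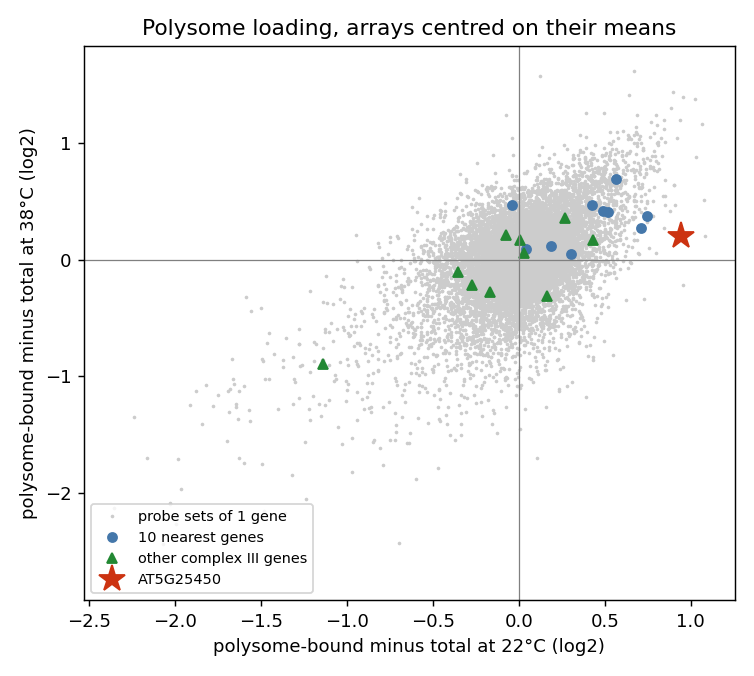
Polysome-bound minus total signal (log2, arrays centred on their means, n = 2 arrays per group) at 22°C against 38°C for the probe sets of 1 gene (grey), with AT5G25450, its 10 nearest genes and the other 10 complex III genes marked. AT5G25450 lies at 0.94 at 22°C and 0.20 at 38°C, and QCR6-2 is the complex III gene at the far left, at -1.14 and -0.90.

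In the mean of both replicates at 22°C, AT5G25450 lay above the other genes of its complex and above most of the other heat-induced mRNAs. The other complex III genes had polysome-bound minus total values at 22°C from -1.14 (QCR6-2) to 0.43 (QCR7-1), with a median of -0.036. With the seedling sample as block, QCR7-1 was called above the average and QCR6-2 below it (adjusted p = 0.0389 and 0.00452 from limma). Of the 51 respiratory genes, the highest had 0.66. Among the 53 heat-induced probe sets 1 had a higher value than AT5G25450, that of AT1G53540 with 1.08, and their median was 0.19. In the fit with that block 8 of the 53 were called above the average, where 4.2% of all probe sets were. The choice of the 53 by their total mRNA shares the TOT22 arrays with these values. Within the seedling sample of replicate 1 also 1 of the 53 lay higher, and within that of replicate 2 4 did, up to 0.82 against 0.61 for AT5G25450. AT1G53540, a small heat shock protein gene, had PB22 signals of 6.22 and 4.17 and TOT22 signals of 4.22 and 4.03, again with the higher PB22 signal in replicate 1. The 10 nearest genes were picked by their likeness to AT5G25450 on these same arrays, so their values are a description and no independent support. They had values from -0.043 to 0.74, and 9 of them were above 0. With the block AT2G29500, AT5G37670, AT4G23493 and AT1G21550 were called above the average (adjusted p 0.0154 to 0.0342 from limma), the others not. At 38°C the median of the 53 was 0.14, and 21 of them exceeded AT5G25450.

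The heat effect in polysome-bound mRNA minus that in total mRNA was -0.74 on the log2 scale relative to the array average (SE 0.30, n = 2 arrays per group, 95% interval -1.46 to -0.015). The adjusted p was 0.856 from limma, in a fit that called 0 probe sets above and 0 below, with 527 and 796 at an unadjusted p under 0.05. With the seedling sample as block it was 0.0985, where 0.465% of all probe sets were called above and 1.11% below. Hence, relative to the average mRNA, a difference between the heat effects in both populations was not shown. With the polysome-content factor kept, which lowers all PB38 values alike, the difference was -1.60 (adjusted p = 0.00926 from limma). A lower value was found for 409 of the 22810 probe sets. Without PB22 replicate 1 the difference was -0.41, and without PB22 replicate 2 it was -1.06. QCR7-1 had -0.26, and the other complex III genes had values from -0.47 to 0.29.

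In the terms of the study, the relative translation efficiency is the fold change in polysome-bound mRNA over that in total mRNA, with the polysome-content factor. For AT5G25450 it was 0.330, against an average of 0.555 and a median of 0.543 over 13333 genes. It was therefore 0.595 times the average, under the limit of the average divided by 1.5 (0.370) that marks mRNAs especially sensitive to the repression, where 3.79% of genes lay. A lower value was found for 214 genes. Matching replicates across temperatures by their number, the efficiency was 0.264 in replicate 1 and 0.412 in replicate 2, so that the gene was under the limit in 1 of the 2. These values carry no test, and the spread of PB22 enters them. All signals of AT5G25450 at 38°C also lay within 1 log2 unit of the brightest probe set of their array. Whether signals are compressed there was not tested, for these values, the loading at 38°C or the difference of heat effects. In the values as deposited, the ratio of polysome-bound to total signal was 1.91 at 22°C, where no factor enters, and 0.629 at 38°C, where the factor does. Both are ratios of normalized signals and give no absolute share of the mRNA on polysomes.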

How the data were processed

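From the CEL files the authors computed log2 signals by RMA in affy (version not given in the sources used here), and lowered PB38 by the polysome content measured for each replicate before they deposited the values. All 8 columns of values were used. The PB38 array means lay 0.86 and 0.91 log2 units below the mean of the other arrays. Genes were taken from the platform annotation and a RefSeq table (TAIR10.1): 13513 probe sets had 1 gene, 13484 of them with a locus, 503 had several and 8794 had none listed. For genes with several probe sets the brightest was used.

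For heat effects, limma 3.58.1 (R 4.3.3) was fitted by lmFit and eBayes to all 8 arrays with 1 mean per group, which leaves 4 residual degrees of freedom. The p-values, for either direction, were adjusted by Benjamini-Hochberg over the 22810 probe sets, and calls needed an adjusted p under 0.05 with a change of 2-fold or more. Polysome-bound minus total values and the difference of heat effects were fitted after centring each array on its mean and called at an adjusted p under 0.05. They were refitted with the seedling sample as block (2 residual degrees of freedom). The pairing comes from the study's methods, and paired arrays deviated together from their groups (r = 0.786 at 22°C, r = 0.762 at 38°C, across probe sets). Pairing by replicate number across temperatures, which the factor per replicate implies, was an alternative for the heat effects. The precision is limited by 2 arrays per group. The fits were tested on simulated data.

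The gene and the lists were chosen with earlier results of these data known. Genes named are the complex III genes, the 10 nearest profiles, 5 neighbouring loci with a probe set on each side, and up to 2 rises and 2 falls per list. Those at the ends of the heat-induced set were chosen after their values were seen. Nucleotide and protein sequences were not used here. Plots used matplotlib 3.10.9 and pandas 2.3.3 in Python 3.11.15.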

Additional observations from a re-analysis of the deposited data

Results flagged for a closer look

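The heat effects of AT4G32470 (QCR7-1), with arrays centred on their means, went in opposite directions in total and polysome-bound mRNA on every array: both TOT38 arrays were above both TOT22 arrays, and both PB38 arrays were below both PB22 arrays. This holds with that scaling. The signals as deposited meet at 11.83 in TOT22 and TOT38, and the change in polysome-bound mRNA was -0.18 with arrays centred on means, -0.042 on medians and 0.058 after cyclic loess. With arrays centred on means, the difference between the 2 effects was -0.26 on the log2 scale. By limma with the seedling sample as block it had an adjusted p of 0.375. Groups of 2 arrays allow no test for an array that stands apart.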

How the results depend on the processing

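The rise of AT5G25450 in total mRNA was 7.74 with arrays centred on their medians and 7.66 after cyclic loess, and with 1 array left out 7.45 to 7.61. In polysome-bound mRNA it was 6.80 with arrays centred on their means, 6.94 on their medians and 6.95 after cyclic loess, settings that take out the polysome-content factor, and 5.60 to 6.25 with 1 array left out. Polysome-bound minus total at 22°C (0.94) passed the threshold with the replicate block, the seedling sample (adjusted p = 0.00689 from limma), and under no other setting tried (0.62 to 1.27 with 1 array left out, adjusted p 0.366 to 0.839). At 38°C it was 0.20 with that block, 0.13 to 0.28 with 1 array left out, and reversed to -0.67 with the factor kept. The difference of heat effects was -0.74 with that block (adjusted p = 0.0985), -1.06 to -0.41 with 1 array left out, and -1.60 with the factor kept (adjusted p = 0.00926 from limma), where all probe sets shift alike. Of the 10 other complex III genes, 0 were called in total mRNA under each alternative. In polysome-bound mRNA 0 were called with arrays centred on means or medians or after cyclic loess, and 2 to 6 with 1 array left out. Small changes in polysome-bound mRNA turned their sign after cyclic loess for AT4G32470 (0.058), AT1G15120 (0.033) and RCA (0.041), and with arrays centred on medians for AT1G15120 (0.0075). Across temperatures, the authors computed the polysome-content factor within each replicate, and same-numbered arrays deviated together (r of 0.523 for total and 0.438 for polysome-bound arrays). With the replicate number as block the complex III counts were again 0 and 5. In polysome-bound mRNA 8 in place of 7 complex I genes fell, since AT1G14450, on the 2-fold limit in both fits, was then counted. No call of another gene named in the lists changed.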
